A study of Mus musculus with 25 samples.

Results

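The 7 messenger RNAs of the mitochondrial genome that the muscle table holds were described in the gastrocnemius, a calf muscle made mostly of fast fibres, of 25 mice. The members were all rows whose symbol starts with mt-, 7 of 8829 genes. They encode subunits of complex I (mt-Nd1, mt-Nd2, mt-Nd4, mt-Nd5 and mt-Nd6), complex III (mt-Cytb) and complex IV (mt-Co1). All mice were males of SAMP8, an inbred line with early signs of ageing, and no transgene or deletion is given for any of them. From 8 months of age, 11 control mice were given the vehicle and 14 mice thymol, a phenol of thyme and oregano, orally in corn oil for 3 months at a daily dose of 20 mg per kg. Each mouse had its own library, made with QuantSeq 3′ mRNA sequencing, which counts reads at the 3′ ends of polyadenylated RNA.

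Mitochondrial DNA is a small circle present in many copies per cell. Both of its strands are transcribed as long RNAs, which are cut at the transfer RNAs that lie between most of the genes, and most of the messengers then gain a poly(A) tail. The ND6 messenger is known, from human cells, to lack such a tail, so in an assay that starts from poly(A) the count of mt-Nd6 cannot be read as its level. Each of the encoded proteins sits at the core of a respiratory chain complex beside many subunits encoded in the nucleus, so that both genomes are needed for oxidative phosphorylation, on which muscle relies for sustained work.

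The mouse annotation lists 37 mitochondrial genes, of which 13 encode proteins, 2 ribosomal RNAs and 22 transfer RNAs. The other 30 were not analysed here, and they include 6 protein-coding genes, both ribosomal RNAs and all the transfer RNAs. The ends that a 3′ assay reads are shown for the 7 members, since reads were counted there. The final 30 bases of each annotated transcript (reference sequence, GENCODE M21, GRCm38) read 5′ to 3′, with the bases of the last codon in capitals:
mt-Nd1: tttacagcgggagtaccaccatacataTAG
mt-Nd2: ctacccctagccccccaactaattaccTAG
mt-Co1: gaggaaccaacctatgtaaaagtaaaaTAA
mt-Nd4: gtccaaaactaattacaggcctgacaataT
mt-Nd5: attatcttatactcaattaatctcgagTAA
mt-Nd6: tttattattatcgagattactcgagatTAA
mt-Cytb: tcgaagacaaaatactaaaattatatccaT

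The ends of mt-Nd4 (chrM:11515-11544, plus strand) and mt-Cytb (chrM:15259-15288, plus strand) carry 1 base beyond a whole number of codons, a T, and the poly(A) tail is known to complete such a stop codon. The other 5 members end in a whole stop codon in the annotation. mt-Nd5 (chrM:13536-13565, plus strand) and mt-Nd6 (chrM:13552-13581, minus strand) face each other, and their annotated genes overlap by 14 bases at chrM:13552-13565. mt-Nd6 is the single member on the opposite strand to the other 6, which are called heavy-strand members below after the strand they are transcribed from. Because no source used here gives the strand setting of the counting, reads in that overlap cannot be assigned to either gene.

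Copies of mitochondrial DNA in the nuclear genome bear on these ends. Every possible 65-base word (65 being the number of sequencing cycles) in the final 300 bases of each member was looked up in the nuclear transcripts of the annotation. Both strands of these transcripts were searched, so a shared word can lie on either strand. For mt-Co1, all 236 words (100%) were also present in a nuclear transcript, namely the pseudogenes Gm29216 (chr1:24615706-24616197, minus strand) and Gm13340 (chr2:22588103-22589647, minus strand). For mt-Nd2, 65 of 236 words (27.5%) were shared, with Gm13339. mt-Nd1, mt-Nd4, mt-Nd5, mt-Nd6 and mt-Cytb shared 0 of 236 words there, although the first 876 bases of mt-Nd4 are copied in Gm28439. Of 10 listed nuclear copies, 0 were among the rows of the table. How reads with more than 1 match were counted is not given in the sources used here, so the level of mt-Co1 is uncertain. Among the 6 protein-coding genes not analysed here, mt-Co2, mt-Atp6, mt-Co3, mt-Nd3 and mt-Nd4l shared between 98.7% and 99.6% of the words at their ends, and mt-Atp8 shared 0%.

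The label of the tissue was checked against 8 skeletal muscle genes. All 8 were present and summed to between 123622 and 167104 CPM (the share of a library taken by a gene, scaled so that all libraries have the same total) per mouse. Reads on the genes of the table, recovered from the deposited values, ranged from 4463818 to 9463418 per mouse. The reads carry no molecular identifiers and were amplified by PCR, so errors computed from them cover counting error only.

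Mitochondrial messengers were among the most abundant RNAs of the muscle. Per 3′ end, in normalized log2 CPM averaged over 25 mice, mt-Nd4 was at 16.90 and ranked 1 of 8829 genes. mt-Nd2 followed at 15.89 (rank 2), mt-Nd1 at 15.20 (rank 4) and mt-Cytb at 15.13 (rank 5). The nuclear genes between and after them encode the sarcomere, with Ttn (titin, the spring of the sarcomere) at 15.46 and rank 3, Myh4 (myosin of the fastest fibres) at 15.04 and Acta1 (skeletal actin) at 14.69. mt-Nd5 was lower at 12.58 (rank 20) and mt-Co1, the catalytic subunit of cytochrome c oxidase, at 11.82 (rank 25). mt-Nd6 was at 4.43 and ranked 3749.

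The order of the members was the same when the level was divided by transcript length. On that scale mt-Nd4 stood at 89644 CPM per kilobase, mt-Nd2 at 59138, mt-Nd1 at 39575 and mt-Cytb at 31726. mt-Nd5 stood at 3381, mt-Co1 at 2361 and mt-Nd6 at 41.8 CPM per kilobase. mt-Co1 was thus 38.0-fold and the count of mt-Nd6 2143-fold below mt-Nd4 per kilobase. Since the assay counts ends, dividing by length is given for comparison only.

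All but a single step of this order held in each mouse. mt-Nd4 exceeded mt-Nd2, mt-Nd2 exceeded mt-Nd1, mt-Cytb exceeded mt-Nd5, mt-Nd5 exceeded mt-Co1 and mt-Co1 exceeded mt-Nd6 in 25 of 25 mice. mt-Nd1 exceeded mt-Cytb in 16 of 25 mice, by a mean of 0.07 on the log2 CPM scale with an SD of 0.12 between mice. Their order thus changed from mouse to mouse, and whether the mean difference departs from 0 was not tested.

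Runs of A inside a transcript can also be primed by oligo(dT). A run of 6 A (AAAAAA, on the transcript strand only) was found in the final 300 bases of mt-Nd1, mt-Nd2 and mt-Nd5. This is 3 of 7 members, beside 18.2% of 58189 nuclear protein-coding transcripts of at least 300 bases. The members with and without such a run in the final 300 bases included both high (mt-Nd2 and mt-Nd4) and low (mt-Nd5 and mt-Co1) levels. mt-Nd4 and mt-Co1 did hold runs farther inside, the nearest starting 1126 and 756 bases from the end. In mt-Nd6 and mt-Cytb 0 runs were found. The part of such priming in the levels was not tested.

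**Figure D1:**
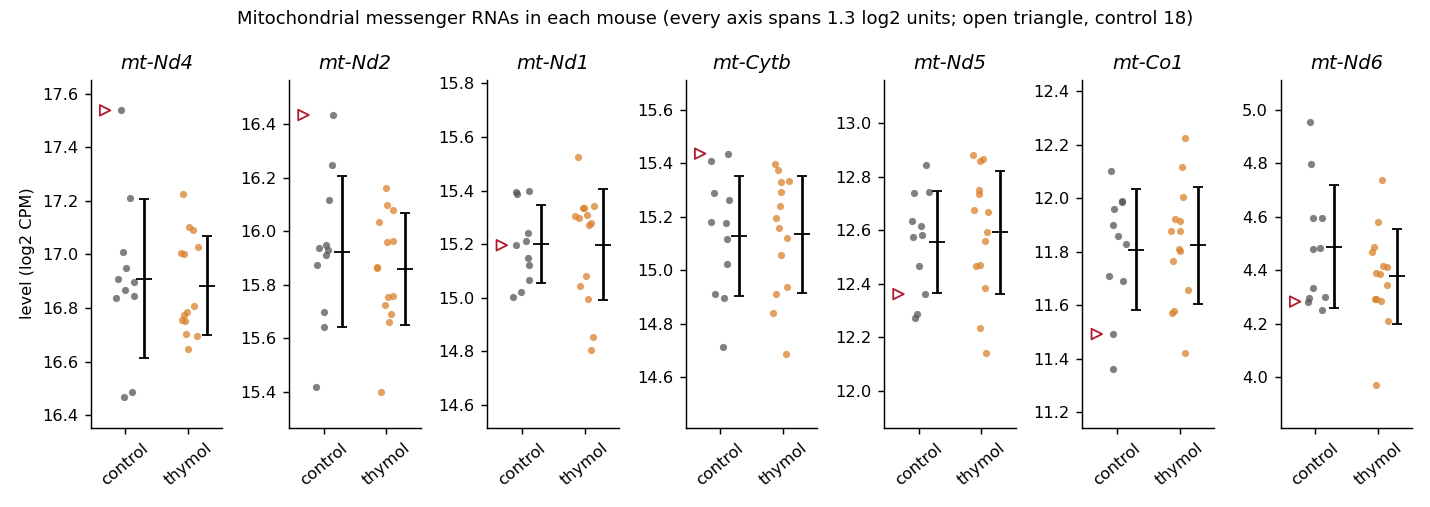
Level of each mitochondrial messenger RNA (vertical axis, normalized log2 CPM) in each of 11 control (grey) and 14 thymol (orange) mice, with mean and SD in black and the library of control 18 marked by an open triangle. The groups overlap for all 7 genes, and control 18 is the highest mouse for mt-Nd4, mt-Nd2 and mt-Cytb but near the bottom for mt-Nd5, mt-Co1 and mt-Nd6.

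A large part of each library came from the 7 genes. Their share of these reads was 27.1% ± 3.56 (SD, n = 11) in control mice, with a lowest value of 22.003%, a median of 27.01% and a highest of 33.9%. In thymol mice it was 26.5% ± 2.39 (SD, n = 14), from 22.9% to 30.5% with a median of 26.1%. The groups overlapped almost throughout, and the difference of -0.562 percentage points (thymol minus control) was smaller than its standard error of 1.25. Both ends of the range were control mice, with control 23 (22.003%) and control 19 (22.1%) lowest and control 35 (31.8%) and control 18 (33.9%) highest.

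mt-Nd4 held the largest part of these reads. In control mice it took between 9.57% and 17.5% of all reads, with a median of 12.2%, and in thymol mice between 10.8% and 14.7%, with a median of 11.7%. Of the mitochondrial reads, mt-Nd4 held 45.8% ± 2.49 (SD) in control and 45.8% ± 2.02 (SD) in thymol mice. mt-Nd2 held 23.1% ± 1.19 and 22.5% ± 1.77, mt-Nd1 14.1% ± 1.72 and 14.3% ± 1.02, and mt-Cytb 13.3% ± 0.754 and 13.6% ± 0.829. mt-Nd5 held 2.26% ± 0.338 and 2.34% ± 0.179, and mt-Co1 1.36% ± 0.245 and 1.38% ± 0.127. mt-Nd6, a small membrane subunit of complex I, held 0.00840% ± 0.00167 of the mitochondrial reads in control and 0.00788% ± 0.00142 in thymol mice.

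**Figure D2:**
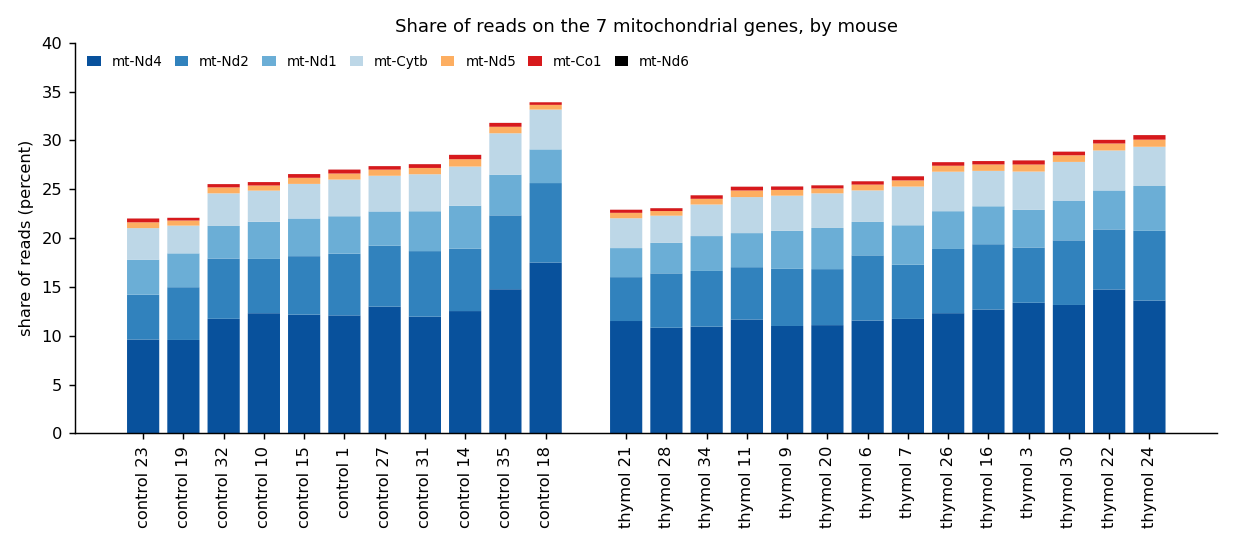
Share of the reads on the 8829 genes (vertical axis, percent) that fell on the 7 mitochondrial genes in each mouse, stacked by gene and ordered within the 11 control and 14 thymol mice. The share runs from 22.003% in control 23 to 33.9% in control 18, with most of it on mt-Nd4 and mt-Nd2, and mt-Nd6 is too low to see.

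The share was set beside depth, processing order and marker lists of other cells, as a description over 25 mice. Its correlation was -0.18 with log2 reads and 0.31 with the library number, and 0.17 with the library number without control 18. Slow fibres hold many mitochondria, and 9 of 10 slow-fibre markers were in the table (Myh7b was not among its rows). Their summed level varied widely, from 945 to 7938 CPM in control and from 99.4 to 10080 CPM in thymol mice, and its log2 had a correlation of 0.17 with the share. The summed 12 of 12 fast-fibre markers (112646 to 155646 CPM in control, 114966 to 153796 CPM in thymol mice) had a correlation of -0.42, but both are parts of the same total of reads. The 12 genes were mixed. With the mean of the 7 members, after group means were removed, their median r was -0.05 and 4 were positive. The highest were the myosins Myh1 (0.60) and Myh2 (0.49), and the lowest Actn3 (-0.38) and Myh4 (-0.28). In bulk muscle, more mitochondria-rich cells and more mitochondrial RNA per cell cannot be told apart.

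Control 18 stood apart in the make-up of its mitochondrial reads as well as in their share. In log2 CPM it was the highest of 25 mice for mt-Nd4 (17.54, 0.63 above the control mean), mt-Nd2 (16.43, 0.51 above) and mt-Cytb (15.44, 0.31 above). Yet its mt-Nd1 (15.20) lay at the control mean, and it ranked 23 for mt-Co1 (11.49, deviation -0.31), 21 for mt-Nd5 (12.36, deviation -0.20) and 22 for mt-Nd6 (4.28, deviation -0.21). As a share of reads, without TMM scaling, the values of control 18 stood lower for 2 genes. Its mt-Cytb (4.07%) was below that of control 35 (4.24%) and thymol 22 (4.09%), and its mt-Nd1 was 3.45%, beside a control mean of 3.77%. Of the mitochondrial reads of control 18, 51.6% fell on mt-Nd4, more than in any other mouse. The same mouse had the highest summed level of the leukocyte markers (10 of 12 in the table, without Ptprc and Adgre1), at 531 CPM, where control mice ranged from 126 to 531 and thymol mice from 131 to 386. The part of these cells in its mitochondrial values was not tested.

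Of the other mice at the ends of the range, control 35 and control 19 lay to the same side for all 7 members, and control 23 did not. Control 35 was above the control mean for all 7 members, by 0.11 (mt-Nd6) to 0.32 (mt-Nd2) on the log2 scale, and its leukocyte markers were at 435 CPM. Control 19 was below it for all 7, most for mt-Co1 (11.36, deviation -0.45, the lowest of 25 mice) and mt-Nd4 (16.47, deviation -0.44, also the lowest), and it had the highest summed adipocyte markers (9 of 11 in the table, without Lep and Ucp1) at 5752 CPM, in a range of 1849 to 5752 in control and 1593 to 4939 in thymol mice. Whether fat in the sample had a part in its values was not tested. Control 23 was below the control mean by 0.51 for mt-Nd2 and 0.42 for mt-Nd4, while its mt-Co1 was 0.05 above.

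The spread between mice was below the median of all genes for all members. The pooled within-group SD was 0.18 (log2) for mt-Nd1, 0.20 for mt-Nd6, 0.21 for mt-Nd5, 0.22 for mt-Co1 and mt-Cytb, and 0.24 for mt-Nd2 and mt-Nd4, where the median over all genes was 0.28. Nuclear genes within 1 log2 unit of the member had a median SD of 0.16 at the level of mt-Nd1 and of mt-Cytb (6 genes each), 0.22 for mt-Nd2 (2 genes), 0.19 for mt-Nd5 (13 genes), 0.22 for mt-Co1 (17 genes) and 0.25 for mt-Nd6 (3725 genes), and none was that close to mt-Nd4. The SD of mt-Nd6 was thus below that of genes at its level, and those of mt-Nd1, mt-Nd2, mt-Cytb, mt-Nd5 and, barely, mt-Co1 above. The highest and lowest of 25 mice differed between 1.65-fold (mt-Nd1) and 2.10-fold (mt-Nd4). Counting error was negligible for the 6 heavy-strand members, with an SD from 0.0015 to 0.0089. For mt-Nd6, with 97 to 224 reads per mouse and a median of 160, counting error alone had an SD of 0.12, beside the spread of 0.20.

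Heavy-strand members rose and fell together across mice. After group means were removed, the Pearson r of the 15 pairs over 25 mice lay between 0.31 and 0.88 with a median of 0.70. The members of a pair share the library and its scaling. On a scale that leaves the mitochondrial reads out of the library total, the range was 0.34 to 0.88 and the median 0.70. mt-Nd6 followed the others little, with r between -0.01 and 0.32 (median 0.24) over 6 pairs. In control mice alone its r was 0.64 with mt-Nd5 and 0.53 with mt-Nd1 (median of the 6 pairs 0.33), and in thymol mice alone 0.08 with both (median 0.08), a difference that was not tested.

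The 6 heavy-strand members formed an uneven net. The closest pair was mt-Co1 with mt-Nd5 (r = 0.88), followed by mt-Nd4 with mt-Cytb (0.84), mt-Nd2 with mt-Nd4 (0.83) and mt-Nd1 with mt-Cytb (0.82). Of these pairs, mt-Nd2 with mt-Nd4 lies within complex I, and the others join members of different complexes. The loosest were mt-Co1 with mt-Nd2 (0.31) and with mt-Nd4 (0.35). Much of this contrast rested on control 18, since without it, an alternative chosen after its values were seen, these pairs had r of 0.54 and 0.68, and the 15 pairs ranged from 0.54 to 0.88 with a median of 0.77. In control mice alone r of mt-Co1 with mt-Nd4 was 0.07, and in thymol mice 0.73. mt-Co1 with mt-Nd5 stayed at 0.88 without control 18.

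**Figure D3:**
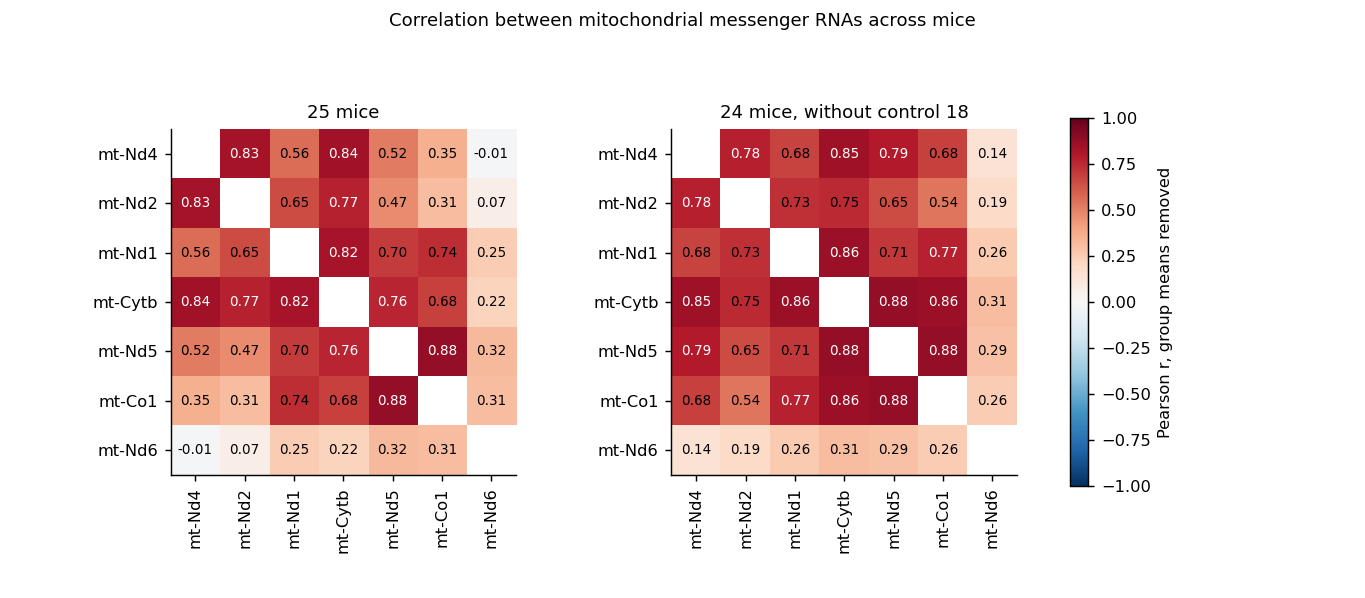
Pearson r between the 7 mitochondrial messenger RNAs across mice after removal of group means, for 25 mice (left) and for 24 mice without control 18 (right). Values among the 6 heavy-strand members run from 0.31 to 0.88 on the left and from 0.54 to 0.88 on the right, while mt-Nd6 has r of at most 0.32 on either side.

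Ratios between members take out whatever scales all of them alike, and 6 of 14 listed pairs were measured. The log2 ratio of mt-Nd5 to mt-Nd4 was between -5.18 and -4.02 in control mice (median -4.28) and between -4.51 and -4.11 in thymol mice (median -4.27). The lowest mouse was control 18 and the highest control 23, so the thymol mice lay wholly inside the control range. Thymol minus control was 0.06 with a standard error of 0.10 (two-sided permutation test with 100000 resamples, p = 0.571, 0.857 adjusted over the 6 ratios).

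The other ratios also differed by less than their spread. The log2 ratio of mt-Nd6 to mt-Nd5, the pair that faces each other, ran from -8.36 to -7.79 in control mice (median -8.08) and from -8.65 to -7.85 in thymol mice (median -8.27). Its difference of -0.15 (SE 0.093) was the largest of the 6 in size but did not pass the test (permutation p = 0.147, adjusted p = 0.818). The log2 ratio of mt-Nd6 to mt-Cytb differed by -0.12 (SE 0.11, permutation p = 0.282, adjusted p = 0.818) and that of mt-Nd1 to mt-Nd2 by 0.06 (SE 0.080, permutation p = 0.409, adjusted p = 0.818). For mt-Co1 to mt-Nd1 and mt-Cytb to mt-Co1 the differences were 0.02 and -0.01, both with an adjusted permutation p of 0.891. Control 18 had the lowest mt-Nd1 to mt-Nd2 ratio (-1.24) and the highest mt-Cytb to mt-Co1 ratio (3.94), and control 23 the opposite extremes (-0.35 and 3.05).

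Nuclear genes of the respiratory chain moved with the mitochondrial ones across mice. Of the nuclear subunit genes listed for complexes I to V, 80 were in the table, and 76 of them had a positive r with the mean of the 7 members over 25 mice, with a median of 0.55. All 8822 nuclear genes had a median of -0.02. The median was 0.54 for complex I (37 genes), 0.63 for complex II (4), 0.64 for complex III (9), 0.59 for complex IV (14) and 0.53 for complex V (16). Complex II, which has no mitochondrially encoded subunit, did not stand below the others. Without control 18 the median of the 80 was 0.57, and on the nuclear-only scale 0.59. All points share library and scaling.

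Within each complex a few subunits stood out. In complex I, Ndufb9 (0.74) and Ndufv2 (0.67) had the highest r with the member mean, and Ndufs5 (-0.24) and Ndufa12 (-0.12) the lowest. All 4 genes of complex II, succinate dehydrogenase, were positive, with Sdha (0.75) and Sdhb (0.72) above Sdhd (0.54) and Sdhc (0.50). In complex III, Uqcrc2 (0.72) and Cyc1, cytochrome c1 (0.69), led, and Uqcr11 (0.47) and Uqcrh (0.46) came last. In complex IV, Cox6b1 (0.70) and Cox5a (0.67) led, and Cox5b (0.02) and Cox6a1 (-3.07e-05) came last. In complex V, ATP synthase, Atp5f1b (0.75) and Atp5f1c (0.69) of the catalytic part led, and Atp5mc2 (0.21) and Atp5mg (-0.12) came last. Some of the last genes were low, with control means of 3.00 (Ndufs5), 2.25 (Atp5mc2) and 3.47 (Atp5mg) log2 CPM, where Atp5f1b was at 9.45. Others were not, such as Ndufa12 at 7.37 and Uqcrh at 8.98. The part of counting error in these values was not tested.

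The members differed in how closely the nuclear subunits followed them. The median r of the 80 genes was 0.61 with mt-Co1, 0.56 with mt-Nd5, 0.53 with mt-Nd1 and 0.51 with mt-Cytb. It was 0.29 with mt-Nd4, 0.28 with mt-Nd2 and 0.15 with mt-Nd6. The most abundant members, mt-Nd4 and mt-Nd2, were thus followed less than mt-Co1 and mt-Nd5, which were 20.0-fold or more below mt-Nd4 in CPM. An r above 0.5 was reached by 50 of the 80 genes with mt-Co1 and by 10 with mt-Nd4, beside 3.63% and 1.04% of all nuclear genes. Without control 18 these counts were 61 and 27, and the medians 0.65 for mt-Co1, 0.43 for mt-Nd4 and 0.34 for mt-Nd2. The gene highest with mt-Co1 was Atp5f1a, the alpha subunit of ATP synthase, at r = 0.93.

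**Figure D4:**
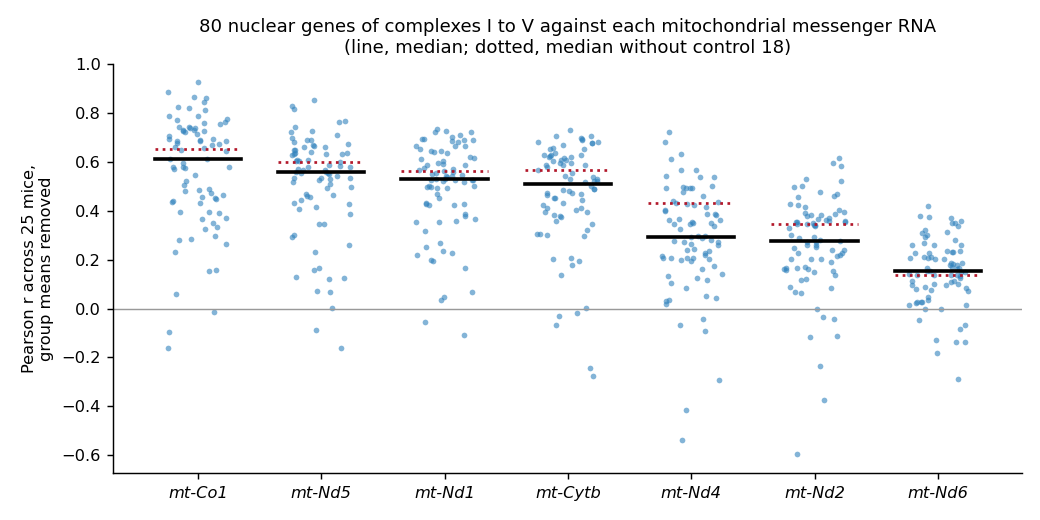
Pearson r across 25 mice (vertical axis, group means removed) between each of 80 nuclear genes of complexes I to V (points) and each mitochondrial messenger RNA, with the median as a black line and the median without control 18 dotted in red. Medians fall from 0.61 for mt-Co1 to 0.29 for mt-Nd4, 0.28 for mt-Nd2 and 0.15 for mt-Nd6.

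Listed gene pairs gave a test of this relation across mice, with 10 of 12 pairs measured. mt-Co1 and Cox4i1, both subunits of cytochrome c oxidase, had r = 0.84 and rho = 0.67 over 25 mice (permutation p = 1e-05 for r, the smallest that 100000 resamples can give, and 5e-05 adjusted over 10 pairs, 0.00042 and 0.0021 for rho). Its r was 0.83 in control and 0.89 in thymol mice, and 0.77 without control 19 and thymol 28, the mice farthest from the median of mt-Co1. mt-Co1 and Cox5a behaved alike, with r = 0.82 and rho = 0.70 (permutation p = 1e-05, adjusted p = 5e-05 for r, 0.00022 and 0.0021 for rho), 0.88 and 0.78 within the groups and 0.71 without the same mice. mt-Co1 and Ppargc1a, the coactivator that drives mitochondrial biogenesis, had r = 0.48 and rho = 0.54 (permutation p = 0.0138, adjusted p = 0.0231 for r, 0.00658 and 0.0219 for rho), 0.59 in control, 0.45 in thymol mice and 0.54 without the same mice. This call was lost when thymol 20, thymol 21 or thymol 24 was left out (adjusted permutation p between 0.0532 and 0.0551). These are relations between mice and not effects of a change in any of the genes.

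Pairs of the other complexes did not pass without the 2 mice farthest from the median of the mitochondrial gene. mt-Cytb and Cyc1 had r = 0.63 and rho = 0.49 (permutation p = 0.00069, adjusted p = 0.0023 for r, 0.0140 and 0.0281 for rho), 0.68 in control and 0.59 in thymol mice, but without control 19 and thymol 28 r was 0.42 (adjusted permutation p = 0.0958). mt-Cytb and Uqcrc1 had r = 0.60 and rho = 0.40 (permutation p = 0.00147, adjusted p = 0.00367 for r, 0.0470 and 0.0769 for rho), 0.56 in control and 0.62 in thymol mice, and r = 0.37 without these mice (adjusted permutation p = 0.112). mt-Nd1 and Ndufv1 had r = 0.52 and rho = 0.50 (permutation p = 0.00755, adjusted p = 0.0151 for r, 0.0130 and 0.0281 for rho), 0.33 in control and 0.65 in thymol mice, and r = 0.40 without thymol 21 and thymol 28 (adjusted permutation p = 0.101). In this respect those 3 relations rested on the mice left out, although leaving them out also narrows the range of the member. That of mt-Nd1 was also lost without thymol 24 alone (r = 0.43, adjusted permutation p = 0.0610).

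The other pairs of mt-Co1 did not pass. For mt-Co1 and Lrpprc, which holds mitochondrial messengers in a stable complex, r was 0.31 and rho 0.37 (permutation p = 0.129, adjusted p = 0.161 for r, 0.0708 and 0.0886 for rho), with -0.04 in control and 0.67 in thymol mice. Without control 18 its r was 0.63 (adjusted permutation p = 0.00156), and without control 19 and thymol 28 it was 0.10. mt-Co1 had r = 0.19 and rho = 0.05 with Polrmt, the mitochondrial RNA polymerase (permutation p = 0.367, adjusted p = 0.408 for r, 0.811 and 0.811 for rho), with 0.48 in control, -0.18 in thymol mice and -0.08 without those mice. With Tfam, which packages mitochondrial DNA and starts its transcription, r was 0.01 and rho -0.10 (permutation p = 0.979, adjusted p = 0.979 for r, 0.621 and 0.690 for rho), with 0.03 in control, -0.05 in thymol mice and 0.13 without those mice.

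Genes that copy, transcribe or process mitochondrial nucleic acids followed the members less than the respiratory chain genes did in these medians. The 11 genes of DNA maintenance and transcription had a median r of 0.03 with the member mean, from -0.13 (Tfam) to 0.17 (Polg, the DNA polymerase of mitochondria). These genes were low, with control means of 3.66 (Polrmt), 3.75 (Polg) and at most 4.68 (Tfam) log2 CPM, where Sdha was at 8.16. Counting error is larger at low levels, and its part in the lower medians was not tested. The 21 genes of RNA processing, polyadenylation and decay had a median of 0.13, with Lrpprc at 0.57 and Fastkd1 at 0.45 highest and Trmt10c at -0.12 and Ptcd3 at -0.19 lowest. The 11 biogenesis regulators had a median of 0.16, with Perm1, a muscle regulator induced by PGC-1 and ERR, at 0.75 and Esrrg at 0.46, while Tfam and Gabpa were at -0.13 and -0.16. Leukocyte markers were negative with mt-Co1 and mt-Nd5 (median r -0.44 and -0.49) and near 0 with mt-Nd2 and mt-Nd4 (0.09 and 0.14), which became -0.19 and -0.14 without control 18.

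The 8 nuclear genes of the whole table most like the member mean over 25 mice were Frzb, a secreted Wnt antagonist (r = 0.86), Vegfb, a growth factor (0.79), Eci1, an enzyme of fatty acid oxidation (0.76), Zfp775 (0.76), Atp5f1b (0.75), Perm1 (0.75), Sdha (0.75) and Ndufb9 (0.74). Of these, 3 encode respiratory chain or ATP synthase subunits. The 8 least alike were Las1l (-0.69), which processes ribosomal RNA, Pikfyve (-0.67), a lipid kinase, Epc2 (-0.66), Lmbrd2 (-0.65), Taf1c (-0.64), a factor of RNA polymerase I, Mesd (-0.63), Tra2b (-0.61), a splicing regulator, and Rabep1 (-0.61). Frzb kept r of 0.87 in control and 0.85 in thymol mice and 0.88 without control 18. These are the extremes of 8822 genes and carry no test.

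Thymol did not change any mitochondrial messenger RNA past the threshold. By limma over all 8829 genes with Benjamini-Hochberg adjustment, 0 of 7 members passed an adjusted p of 0.05, where 0 of all genes (0%) did, the smallest adjusted p being 0.741. At an unadjusted p under 0.05 there were 0 of 7 members, beside 312 genes (3.53%). Of the members 3 were higher and 4 lower with thymol, and their median log2 difference of -0.00065 was close to that of all genes (-0.0014).

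Among the 7 members, mt-Nd6 had the difference of largest size. It ran from 4.25 to 4.95 log2 CPM in control mice (median 4.48) and from 3.97 to 4.74 in thymol mice (median 4.39). The groups overlapped, with 11 of 14 thymol mice below the control median. Thymol minus control was -0.11 (SE 0.085, limma p = 0.200, adjusted p = 0.9999).

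mt-Nd2 ran from 15.42 to 16.43 log2 CPM in control mice (median 15.93) and from 15.40 to 16.16 in thymol mice (median 15.86), a difference of -0.07 (SE 0.10, limma p = 0.530, adjusted p = 0.9999). mt-Nd4 ran from 16.47 to 17.54 (median 16.90) in control and from 16.65 to 17.22 (median 16.80) in thymol mice, a difference of -0.03 (SE 0.11, limma p = 0.807, adjusted p = 0.9999). For both genes the highest mouse was control 18, and the thymol mice lay inside the control range except for the lowest mt-Nd2 value. mt-Nd1 ran from 15.003 to 15.40 (median 15.20) in control and from 14.80 to 15.53 (median 15.29) in thymol mice, and the means differed by -0.00065 (SE 0.083, limma p = 0.994, adjusted p = 0.9999). mt-Nd5 ran from 12.27 to 12.84 (median 12.58) in control and from 12.14 to 12.88 (median 12.63) in thymol mice, a difference of 0.04 (SE 0.084, limma p = 0.675, adjusted p = 0.9999). In mt-Nd1 and mt-Nd5 the thymol mice spread to both sides of the control range.

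Complexes III and IV gave the same picture. mt-Cytb, which carries electrons through complex III, ran from 14.71 to 15.44 log2 CPM in control mice (median 15.18) and from 14.69 to 15.40 in thymol mice (median 15.18), a difference of 0.01 (SE 0.093, limma p = 0.950, adjusted p = 0.9999). mt-Co1 ran from 11.36 to 12.10 (median 11.86) in control and from 11.42 to 12.23 (median 11.84) in thymol mice, a difference of 0.02 (SE 0.085, limma p = 0.838, adjusted p = 0.9999). For both genes 7 of 14 thymol mice were above the control median. Over the 7 members, 2 standard errors each way reached from 0.823-fold (mt-Nd6) to 1.15-fold (mt-Nd5). Larger average changes lay outside these intervals, and changes inside them were not excluded. The intervals are not adjusted over genes, so a change somewhat beyond them could also have gone uncalled.

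Nuclear partner genes showed no called change either. Of the 80 nuclear subunit genes, 61 were higher with thymol, with a median log2 difference of 0.04, beside 4372 of 8822 nuclear genes higher. The limma test called 0 of the 80 after adjustment. At an unadjusted p under 0.05 there was 1 of the 80, beside 312 of all 8829 genes (3.53%). This gene was Ndufb7 of complex I (difference 0.11, SE 0.048, limma p = 0.0310). Among genes that act on mitochondrial DNA and RNA, Mterf2, a member of the transcription termination factor family, differed by 0.29 (SE 0.13, limma p = 0.0369) and Tfam by 0.13 (SE 0.071, limma p = 0.0760). Among biogenesis regulators, Ppard, a nuclear receptor of fatty acid oxidation, differed by -0.23 (SE 0.095, limma p = 0.0214). None of these 3 passed after adjustment over all genes (limma, Benjamini-Hochberg).

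**Figure D5:**
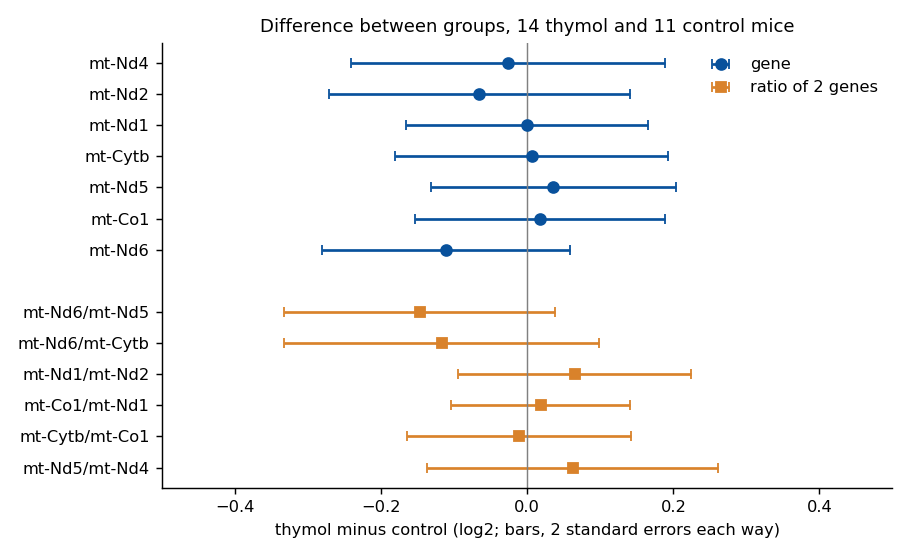
Thymol minus control (horizontal axis, log2) for the 7 mitochondrial messenger RNAs (circles) and for 6 ratios between them (squares), in 14 thymol and 11 control mice, with bars of 2 standard errors each way. Every bar crosses 0, and the differences of largest size are those of the ratios of mt-Nd6 to mt-Nd5 (-0.15) and to mt-Cytb (-0.12), followed by mt-Nd6 itself (-0.11).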

How the data were processed

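The authors aligned the reads (STAR 2.5.3, GRCm38), took counts for each gene from HTSeq 0.6.1, applied a filter on low counts and TMM scaling, tested the counts with edgeR, and deposited log2 CPM values for 8829 genes in 25 mice. Whole reads were recovered from the steps of the values (tolerance 0.1 read, 100% of 220725 values). Shares of reads used these reads; other results used the deposited log2 values. Groups were compared with limma 3.58.1 (trend, two-sided, Benjamini-Hochberg over all genes, threshold 0.05), checked on simulated data; correlations and ratios used permutation tests with 100000 resamples. The main test was on the log scale because the values are not counts. Coordinates and sequences came from GENCODE M21 (GRCm38). The members, lists and pairs were chosen with earlier results of these data known. The text names all mt- genes, the nuclear genes of the listed pairs, in each nuclear list those with an unadjusted p under 0.05 and the 2 most and 2 least correlated with the member mean, the 8 most and 8 least correlated genes of the table, and the 2 mice at each end of the share. Mice of a group were grouped by title. What the first number in the titles stands for is not given. Mice of different groups with the same number were on average not more alike. The mean r of their deviations was -0.0022 over 9 pairs, beside 0.00021 over 145 other pairs. The groups were therefore compared unpaired, although so few pairs cannot exclude a link between such mice. Alternatives were other scalings, a filter, variance settings, array weights, a block, covariates, voom on the recovered reads and leaving out each mouse. Of the 10 gene pairs measured, 1 is not reported here.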

Additional observations from a re-analysis of the deposited data

How the results depend on the processing

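The counts of genes and members that passed with thymol stayed at 0 under all 11 other settings and without each mouse, and genes with an unadjusted p under 0.05 numbered between 234 and 348. No ratio passed under any setting. Listed nuclear pairs that passed numbered 6 under the 3 other settings and 4 to 7 without a mouse. The difference in share lay between -1.07 and 0.119 percentage points without a mouse, and between -0.560 and -0.522 under 2 other definitions of the share. The log2 differences near 0 changed sign. Quantile normalization gave 0.00634 (mt-Nd1), 0.00784 (mt-Nd2), -0.00819 (mt-Nd5) and -0.0134 (mt-Cytb). This setting gives each rank the same value in every library. It therefore cannot show a change in mt-Nd4, the highest gene (-6.24e-15), and leaves little room for one in the other most abundant members. Median centring gave 0.00222 and array weights 0.00429 for mt-Nd1, and the nuclear-only scale gave -0.00385 for mt-Cytb and r = -0.0130 for mt-Co1 with Tfam. A replicate block on the first number of the label, whose meaning is not given, gave 0.0736 (mt-Nd1), 0.0395 (mt-Nd2) and 0.0359 (mt-Nd4). It changed no call, but mt-Nd5 (0.159) and mt-Co1 (0.103) then exceeded mt-Nd6 (-0.0785) in size. The cause of these changes was not tested. Without a mouse, the log2 differences ranged from -0.0258 to 0.0298 (mt-Nd1), -0.0271 to 0.0487 (mt-Co1), -0.0707 to 0.0364 (mt-Nd4) and -0.0356 to 0.0403 (mt-Cytb), and with no change of sign from -0.116 to -0.0144 (mt-Nd2, smallest without control 18), 0.00706 to 0.0702 (mt-Nd5) and -0.139 to -0.0649 (mt-Nd6). The ratio differences ranged from -0.0130 to 0.0458 (mt-Co1 to mt-Nd1), -0.0388 to 0.0506 (mt-Cytb to mt-Co1) and -0.0203 to 0.0956 (mt-Nd5 to mt-Nd4), and r of mt-Co1 from -0.136 to 0.0598 with Tfam and -0.0138 to 0.287 with Polrmt. The share without ribosomal RNA rows was not run, since the table analysed holds no such row. Among the 7 members, depth limits mt-Nd6 only, with 97 reads in its lowest library. Some nuclear genes of the lists were lower still, such as Atp5mc2 with a control mean of 2.25 log2 CPM, where mt-Nd6 was at 4.49.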
